A study of Mus musculus with 10 samples.

Results

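Contraction of the heart is set by calcium that cycles between the cytosol of the cardiomyocyte and the sarcoplasmic reticulum, and 10 genes of that cycle are described here: Ryr2, Trdn, Casq2, Hrc, Atp2a2, Pln, Sln, Strit1, Cacna1c and Slc8a1. They were chosen by symbol from a fixed list of release, uptake, storage and surface membrane genes, with earlier results of these data known. The table for E15.5, in the second part of gestation, lists 3 of the 10 among its 15498 genes, namely Atp2a2, Casq2 and Hrc. The table for the adult heart lists 9 of the 10 among 15989 genes. Sln, the gene of the pump inhibitor sarcolipin, is listed in neither, and genes that are not listed were not analysed here.

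At each beat calcium enters through the L-type channel, whose pore is encoded by Cacna1c, and opens the ryanodine receptor Ryr2, which releases far more calcium from the reticulum. Casq2 binds calcium inside the reticulum, Trdn anchors it at the release site, and Hrc is a luminal protein that binds calcium and touches both triadin and the pump. For relaxation the pump SERCA2, encoded by Atp2a2, returns calcium to the reticulum while the exchanger encoded by Slc8a1 moves it out of the cell. Phospholamban (Pln) inhibits the pump, and the small peptide encoded by Strit1, also called DWORF, relieves that inhibition.

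RNA was compared between hearts labelled as knockouts of Larp7, whose protein binds the noncoding 7SK RNA, and control hearts, all of C57BL/6 mice. The embryonic samples were whole hearts at E15.5, 3 from the conventional knockout (Larp7-/-) and 3 from the wild type (Larp7+/+). The adult samples were apex tissue at 4 months of age, 2 from mice labelled mCKO, with floxed Larp7 alleles and Cre under the cardiomyocyte promoter of Myh6 (Myh6Cre;Larp7f/f), and 2 from controls labelled CTR, with the floxed alleles and no Cre in the genotype label (Larp7f/f). An effect of Cre itself and an effect of Larp7 loss cannot be told apart in the adult design. Nothing in the labels says whether replicates are different animals. The p-values therefore rest only on spread between these samples, which may be technical. In the adult, for Atp2a2, Hrc and most other genes, the test uses that spread as pooled over genes of similar level. In whole tissue, fewer cardiomyocytes and less RNA per cardiomyocyte cannot be told apart.

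The values are per-million values that the authors rounded to whole numbers, and each sample sums to 998498 to 1001508; the depth is unknown. No source says whether gene length was scaled out, and levels of different genes are therefore not compared. In nearly every gene, a knockout and a control sample that share a replicate number have values with 1 constant sum, which ties the SDs of the groups to each other. Changes are differences in log2(value + 1), knockout minus control, tested with limma over all genes of a table with Benjamini-Hochberg adjustment, and called at an adjusted p under 0.05. Larp7 was 45, 54 and 40 in the E15.5 knockout hearts and 96, 88 and 103 in the wild-type hearts. In the adult it was 26 and 24 in the mCKO apex and 26 and 28 in the CTR apex, and thus offers no check of the adult labels.

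In the adult apex, 3 of the 9 listed calcium cycling genes fell in the mCKO samples and 0 rose, against 0.95% of all 14835 tested genes called lower and 2.34% called higher (3.29% either way). Those that fell were Strit1, the peptide that favours the pump, Atp2a2, the pump itself, and Hrc, the luminal calcium binder. At an unadjusted p under 0.05 the same count, 3 lower and 0 higher, was found, against 3.3% and 9.05% of all tested genes. The median change of the 9 genes was -0.22 on the log2 scale, beside 0.0764 over all tested genes. Values of the mCKO and CTR samples did not overlap in 7 of the 9, with mCKO lower in 6 and higher in 1. Over all tested genes the groups did not overlap in 42.1%, with mCKO lower in 12.8% and higher in 29.3%.

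**Figure D1:**
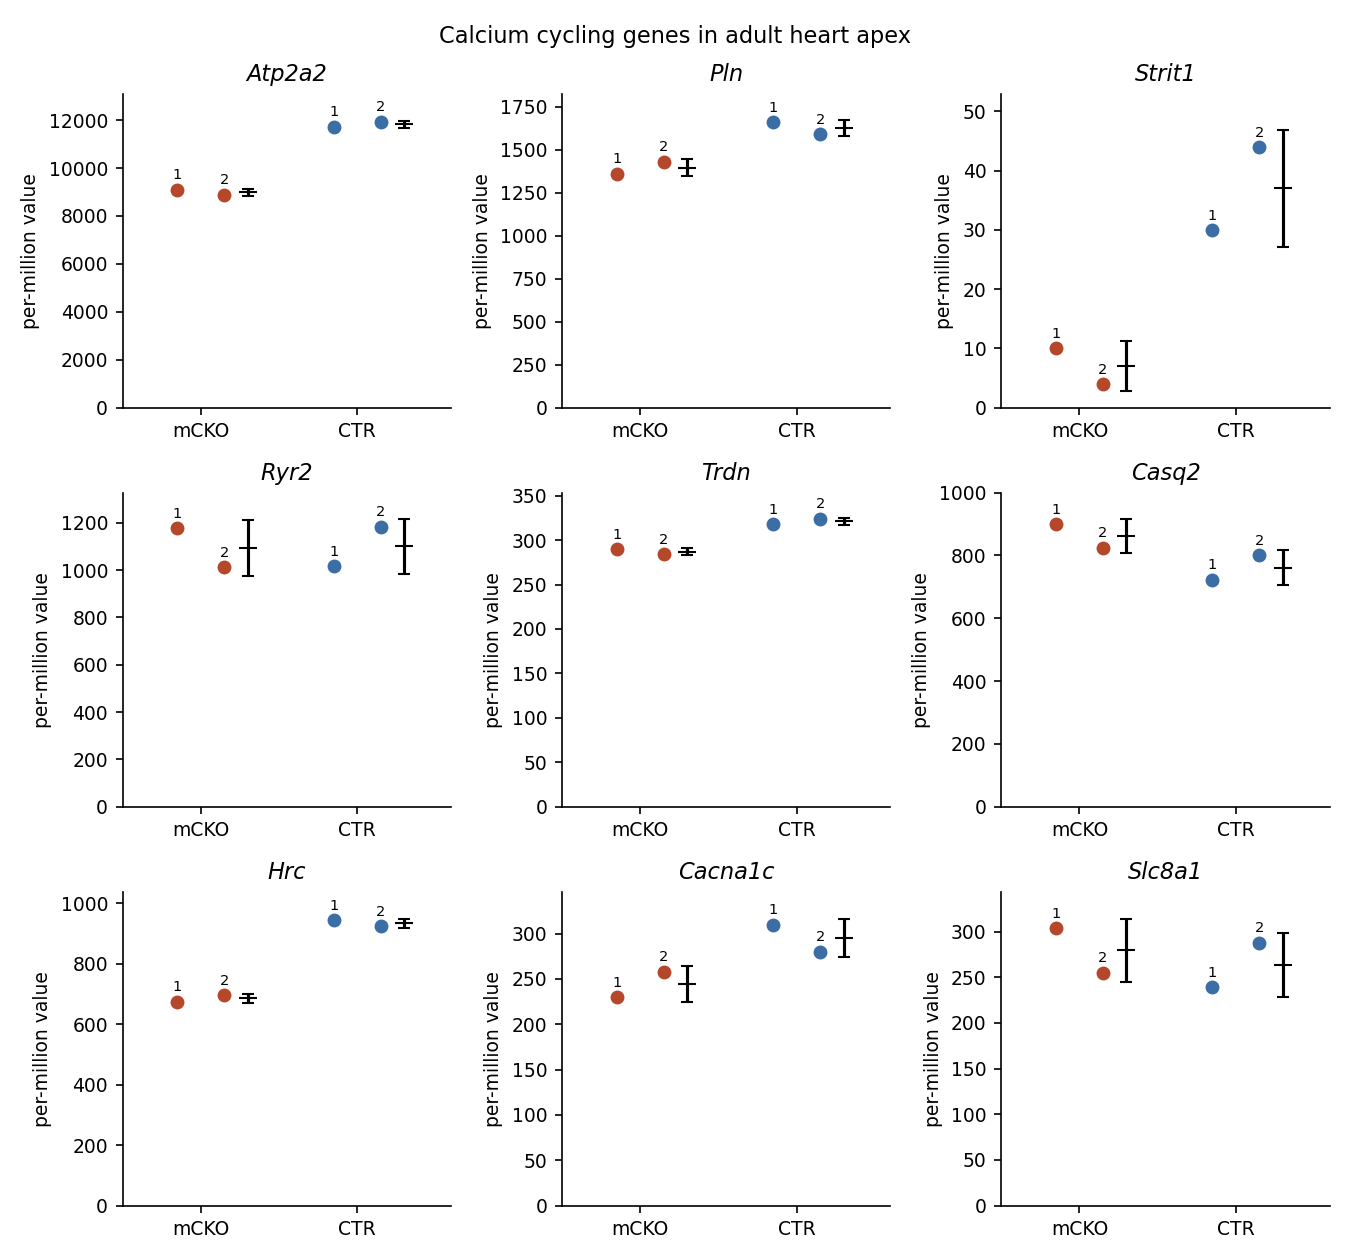
Per-million values (vertical axes, each from 0) of 9 calcium cycling genes in the 2 mCKO and 2 CTR samples of adult apex; points are samples with their replicate number, and black marks give the mean and SD (n = 2). Atp2a2 and Hrc lie lower in both mCKO samples with little spread, Strit1 lies at 10 and 4 against 30 and 44, and the values of Ryr2 and Slc8a1 overlap between groups.

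For the start sites of the called genes, sequence before the annotated transcription start was read where the RefSeq promoter table of build GRCm38.p6, the build also named mm10, had an entry, which was so for 7 of the 10 genes. The 250 bases before the start are shown for Strit1 and Hrc, the called genes with an entry, and for Pln, the pump inhibitor, for comparison. Capitals mark CAGCTG, an E-box that reads the same on both strands and that muscle transcription factors of the basic helix-loop-helix type can bind.
Strit1, chr3:63483907-63484156, minus strand: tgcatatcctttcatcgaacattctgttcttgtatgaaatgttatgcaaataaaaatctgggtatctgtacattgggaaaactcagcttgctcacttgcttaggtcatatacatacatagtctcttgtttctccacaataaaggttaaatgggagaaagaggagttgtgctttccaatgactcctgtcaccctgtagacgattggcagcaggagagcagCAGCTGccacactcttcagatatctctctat
Hrc, chr7:45335019-45335268, plus strand: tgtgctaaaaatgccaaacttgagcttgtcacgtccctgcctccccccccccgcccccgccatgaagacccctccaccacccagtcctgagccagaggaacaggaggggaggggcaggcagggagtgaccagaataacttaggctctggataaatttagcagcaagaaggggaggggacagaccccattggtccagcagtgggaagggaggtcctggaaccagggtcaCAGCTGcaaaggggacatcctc
Pln, chr10:53337436-53337685, plus strand: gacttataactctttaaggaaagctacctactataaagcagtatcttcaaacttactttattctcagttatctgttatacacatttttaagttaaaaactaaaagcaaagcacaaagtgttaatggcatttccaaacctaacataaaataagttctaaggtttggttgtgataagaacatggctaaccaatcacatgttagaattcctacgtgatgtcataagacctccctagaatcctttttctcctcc
The first base of CAGCTG lies 31 bases before the annotated start in Strit1 and 22 bases before it in Hrc. It was not found in the same stretch of Pln, Casq2, Ryr2, Slc8a1 or any of the 3 annotated starts of Cacna1c. Of 32851 promoter stretches of this length in the table, 13.0% held CAGCTG, and the motif was picked after these sequences had been read. A match in these letters is a description of the sequence and was not tested against binding or expression.

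Strit1 (chromosome 3, 63481095 to 63483906 in GRCm38.p6, over the annotated gene) had the largest fold among the adult members. It stood at 10 and 4 in the mCKO samples, against 30 and 44 in the CTR samples. Both mCKO values lay below both CTR values, and the mCKO mean of 7 ± 4.24 was 18.9% of the CTR mean of 37.0 ± 9.9 (SD, n = 2 each). On the log2 scale Strit1 differed by -2.33 (SE 0.23, adjusted p = 1.99e-11, limma). That SE is drawn mainly from other genes of similar level; the spread of Strit1 itself gives an SE of 0.84, since the change was -1.49 for replicate number 1 and -3.17 for number 2. The totals of the numbers are 40 and 48, and the value of 4 in mCKO number 2 meets the fixed total only when it is given a negative sign. With that value set to 0 the log2 change was -3.49 and the call was lost (adjusted p = 0.855, limma). The call was also lost without the replicate block (adjusted p = 0.101, limma). Leaving out a sample meant dropping the block as well; in those fits Strit1 was called without mCKO number 1, mCKO number 2 or CTR number 2, and was not called without CTR number 1 (log2 -2.60, adjusted p = 0.0752, limma). For Strit1 the log2 fold change in the authors' deposited table is -2.47 (unadjusted p = 0.000636).

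Atp2a2, the pump gene on chromosome 5 from 122453513 to 122502225, had values of 9092 and 8879 in the mCKO samples, against 11723 and 11937 in the CTR samples. The mCKO samples lay below both CTR samples, at 76.0% of the CTR mean (8986 ± 151 against 11830 ± 151, SD, n = 2 each). The pump gene fell by 0.40 on the log2 scale (SE 0.12, adjusted p = 0.0379, limma). Here the SE of the gene's own spread, 0.03, is smaller than the pooled one, and both replicate numbers gave close changes, -0.37 and -0.43. Its log2 fold change in the authors' deposited table is -0.46 (unadjusted p = 7.85e-07). With a pseudocount of 5 the gene missed the threshold at the same log2 change (adjusted p = 0.0545, limma).

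Hrc, on chromosome 7 from 45335269 to 45338973, fell by a similar factor; the 2 changes were not tested against each other. It was 675 and 696 in the mCKO samples, against 944 and 924 in the CTR samples, and the groups did not overlap. The mCKO mean of 686 ± 15 was 73.4% of the CTR mean of 934 ± 14 (SD, n = 2 each; log2 -0.45, SE 0.14, adjusted p = 0.0417, limma). The gene's own spread gives an SE of 0.04. In the authors' deposited table Hrc has a log2 fold change of -0.51 (unadjusted p = 0.000242).

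The calls of Strit1, Atp2a2 and Hrc rest on a spread pooled over genes, since each adult gene has 1 residual degree of freedom. With the own and the pooled spread weighted equally, 0 of the 9 genes were called (adjusted p = 0.935 for each of the 3, limma), as were 0 of all tested genes. Without the variance of rounding 0 members were called (adjusted p between 0.234 and 0.61 for the 3, limma), while 833 of all 14835 tested genes were called higher and 297 lower.

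**Figure D2:**
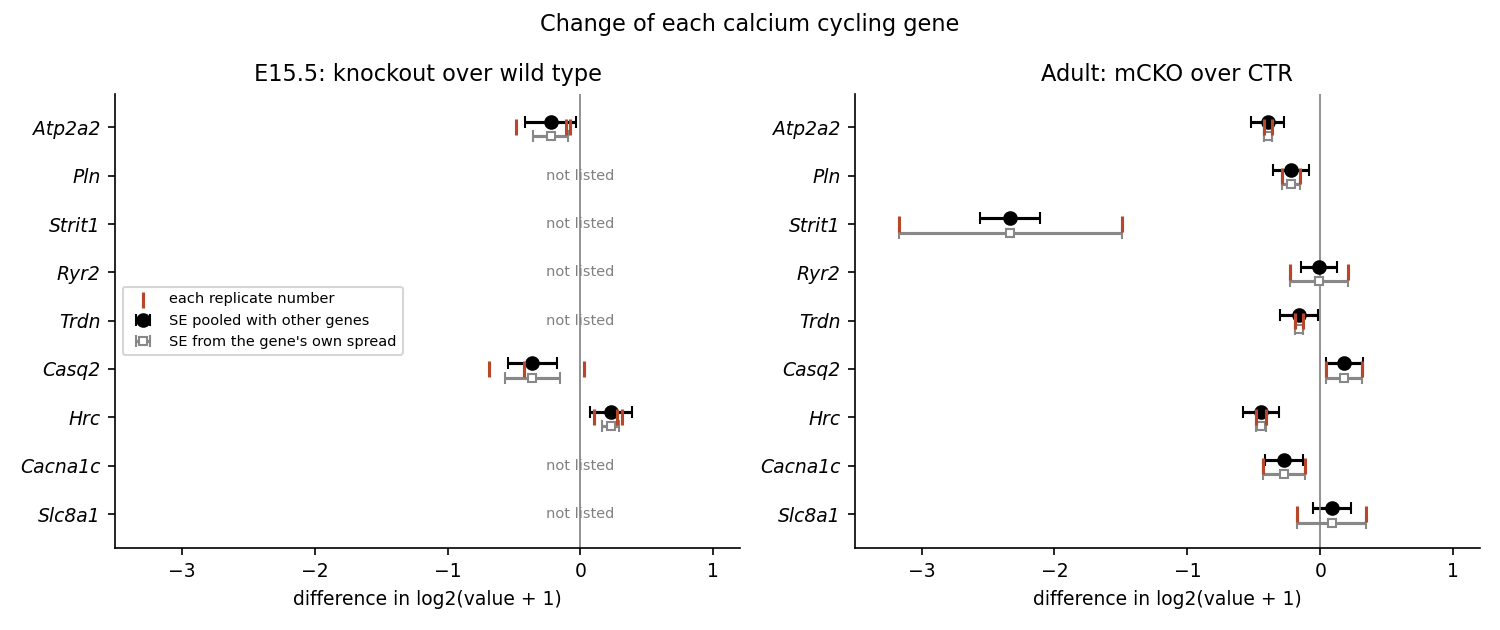
Change of each calcium cycling gene on the log2(value + 1) scale (horizontal axis), knockout over wild type at E15.5 and mCKO over CTR in the adult; filled circles carry the SE pooled with other genes, open squares the SE of the gene's own spread, and red ticks the change of each replicate number. Strit1 is the adult gene whose own SE (0.84) far exceeds the pooled SE (0.23), whereas for Atp2a2 and Hrc it is smaller.

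For phospholamban, the inhibitor, no call was made. Pln had 1361 and 1431 in the mCKO samples, against 1661 and 1592 in the CTR samples, without overlap. Its log2 change of -0.22 (SE 0.13) did not pass the test (adjusted p = 0.549, limma), and the authors' deposited table gives an unadjusted p of 0.024. Since a ratio within a sample does not depend on a scale factor shared by its genes, Pln and Strit1 were also set against Atp2a2. The Strit1 ratio was not planned and took the place of a planned ratio for Sln, which is not listed. What made the sums of same-numbered samples constant is not known. A ratio would not cancel a change made gene by gene. The ratio of Pln to Atp2a2, multiplied by 1000, was 150 and 161 in the mCKO samples and 142 and 133 in the CTR samples, without overlap. The log2 difference was 0.18 (exact permutation test, two-sided, p = 0.333). The ratio of Strit1 to Atp2a2, multiplied by 1000, was 1.10 and 0.45 in the mCKO samples and 2.56 and 3.69 in the CTR samples, a log2 difference of -1.94 with 1 added to each value (exact permutation test, two-sided, p = 0.333). The 0.45 rests on the Strit1 value of 4 whose sign appears to have been changed, and without that sample the log2 difference was -1.38. With 2 samples against 2 the smallest p this test allows is 0.333, which is also the adjusted value over both ratios, so neither could pass the threshold.

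**Figure D3:**
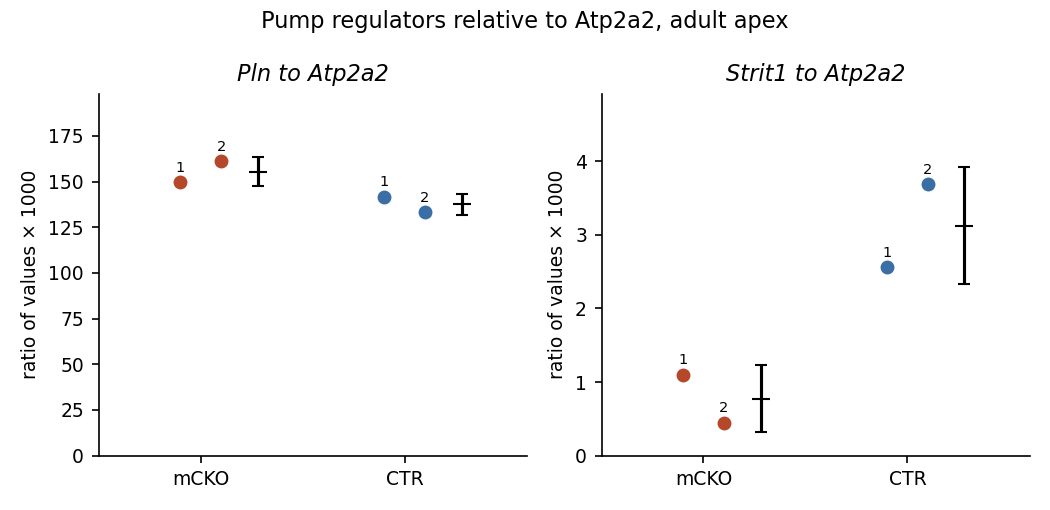
Ratio of the Pln value and of the Strit1 value to the Atp2a2 value of the same adult apex sample, multiplied by 1000 (vertical axes from 0); points are samples with their replicate number, black marks the mean and SD (n = 2). Pln to Atp2a2 lies at 150 and 161 in mCKO above 142 and 133 in CTR, and Strit1 to Atp2a2 at 1.10 and 0.45 below 2.56 and 3.69, where the 0.45 (mCKO number 2) rests on the Strit1 value of 4 whose sign appears to have been changed.

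At the release site no adult gene was called. Ryr2, the release channel, had 1178 and 1011 in the mCKO samples, against 1017 and 1183 in the CTR samples. Its groups overlapped almost fully, and the log2 difference was -0.01 (SE 0.14, adjusted p = 1, limma). Trdn, which holds calsequestrin at the channel, had 290 and 284 in the mCKO samples, against 318 and 324 in the CTR samples. The mCKO samples lay below the CTR samples, but the change of -0.16 (SE 0.14) did not pass the test (adjusted p = 0.785, limma). Casq2, the calcium buffer, had 900 and 824 in the mCKO samples, against 722 and 800 in the CTR samples. It was the 1 member with higher mCKO values and no overlap, but its log2 difference of 0.18 (SE 0.14) did not pass the test (adjusted p = 0.699, limma).

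At the surface membrane, Cacna1c, the pore of the L-type channel, had 230 and 258 in the mCKO samples, against 310 and 280 in the CTR samples. The groups did not overlap, and the log2 change of -0.27 (SE 0.14) did not pass the test (adjusted p = 0.437, limma). Slc8a1, the sodium-calcium exchanger, had 304 and 255 in the mCKO samples, against 239 and 288 in the CTR samples. These values overlapped, the log2 difference being 0.09 (SE 0.14, adjusted p = 0.933, limma), and for both Ryr2 and Slc8a1 the sign turned when single samples were left out.

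Of 14 markers of cardiomyocytes in the adult apex, 7 were higher and 7 lower in mCKO, with 1 called as higher and 0 as lower, and a median log2 change of -0.02. Their summed values were 64665 to 66087 in the mCKO samples, against 67351 to 68772 in the CTR samples. The summed values of 10 fibroblast markers were 2460 to 2779 in mCKO, against 1345 to 1662 in CTR, with 9 of 10 higher and 1 called. Col1a1, Col1a2, Col3a1 and Postn had means of 204, 291, 458 and 212 in mCKO, against 66, 122.5, 123.5 and 44.5 in CTR. None of them was called (adjusted p = 0.877 for each collagen gene and 0.784 for Postn, limma). The called marker was Pdpn (means of 16 in mCKO and 8.5 in CTR), while Pdgfra had means of 47 in mCKO and 47.5 in CTR. The 9 epicardial markers were also higher in mCKO (summed values 80 to 121, against 24 to 65 in CTR, 9 of 9 higher, 2 called). Macrophage markers summed to 745 to 754 in mCKO, against 628 to 637 in CTR, with 9 of 10 higher and 0 called in limma. Atrial markers summed to 1407 to 1617 in mCKO, against 351 to 562 in CTR, with 7 of 13 tested higher and 5 lower. Most of that sum was Nppa, at means of 1299 in mCKO and 210.5 in CTR, which was not called (adjusted p = 0.716, limma). The 1 atrial marker called was Kcnj3, as lower (means of 38 in mCKO and 65 in CTR, adjusted p = 9.2e-05, limma). Ventricular markers summed to 17163 to 17300 in mCKO, against 17445 to 17577 in CTR, with 4 higher, 4 lower and 1 called as lower. Skeletal muscle markers summed to 2347 to 2399 in mCKO, against 1397 to 1446 in CTR, with 3 of 5 higher and 1 lower. Nearly all of that sum was Ckm (means of 1461.5 in mCKO and 1263 in CTR) and Acta1 (909 in mCKO and 156 in CTR). Neither was called (adjusted p = 0.597 and 0.753, limma), and Mylpf, Tnnt3 and Tnni2 had means of at most 1 in both groups. Sums of endothelial markers (899 to 932 in mCKO, 966 to 999 in CTR) and of smooth muscle and pericyte markers (1173 to 1176 in mCKO, 1261 to 1266 in CTR) were lower in mCKO. No listed marker was at 0 in every sample, although the epicardial Krt8 and the atrial Bmp10 were at 0 in both CTR samples. The part of these shifts in the lower values of Strit1, Atp2a2 and Hrc was not tested.

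At E15.5 neither higher nor lower calls were made among the 3 listed members, where 0.529% of 13609 tested genes were called higher and 0.103% lower (0.632% either way). In limma 0 of the 3 also had an unadjusted p under 0.05, which 10.3% of tested genes had as higher and 3.62% as lower. The groups did not overlap in 2 of the 3, with the knockout higher in 1 and lower in 1, beside 28.1% of all tested genes. Of the tested genes 19.3% lay higher in the knockout without overlap and 8.75% lower.

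Atp2a2 had 2125, 1822 and 2100 in the E15.5 knockout hearts, against 2244, 2547 and 2268 in the wild-type hearts. All knockout values lay below all wild-type values, at means of 2016 ± 168 and 2353 ± 168 (SD, n = 3 each). The log2 change of -0.22 (SE 0.19) did not pass the test (adjusted p = 0.639, limma). The difference was largest for replicate number 2 (-0.48), and smaller for numbers 1 and 3 (-0.08 and -0.11). Without number 2 of the knockout or of the wild type the log2 difference was -0.09. The authors' deposited table gives an unadjusted p of 0.0436 and an adjusted p of 0.341.

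Casq2 was 732, 864 and 656 in the knockout hearts, against 981, 850 and 1058 in the wild-type hearts. Number 2 of the knockout lay above number 2 of the wild type, and the groups overlapped. The knockout mean was 751 ± 105 and the wild-type mean 963 ± 105 (SD, n = 3 each), a log2 difference of -0.36 (SE 0.19; adjusted p = 0.378, limma). Without number 2 of the knockout it was -0.56 and was called as lower (adjusted p = 0.0319, limma), and likewise without number 2 of the wild type (adjusted p = 0.0292, limma). Without number 3 of the knockout or of the wild type it was -0.20 and was not called (adjusted p = 0.898 and 0.896, limma). Leaving out either sample of a number removes that number from the comparison under the replicate block, so the results for the samples of 1 number are not separate.

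Hrc was 115, 123 and 121 in the knockout hearts, against 107, 99 and 100 in the wild-type hearts. All knockout values were above all wild-type values, while the log2 change of 0.23 (SE 0.16) did not pass the test (adjusted p = 0.536, limma). The authors' deposited table gives an unadjusted p of 0.426.

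**Figure D4:**
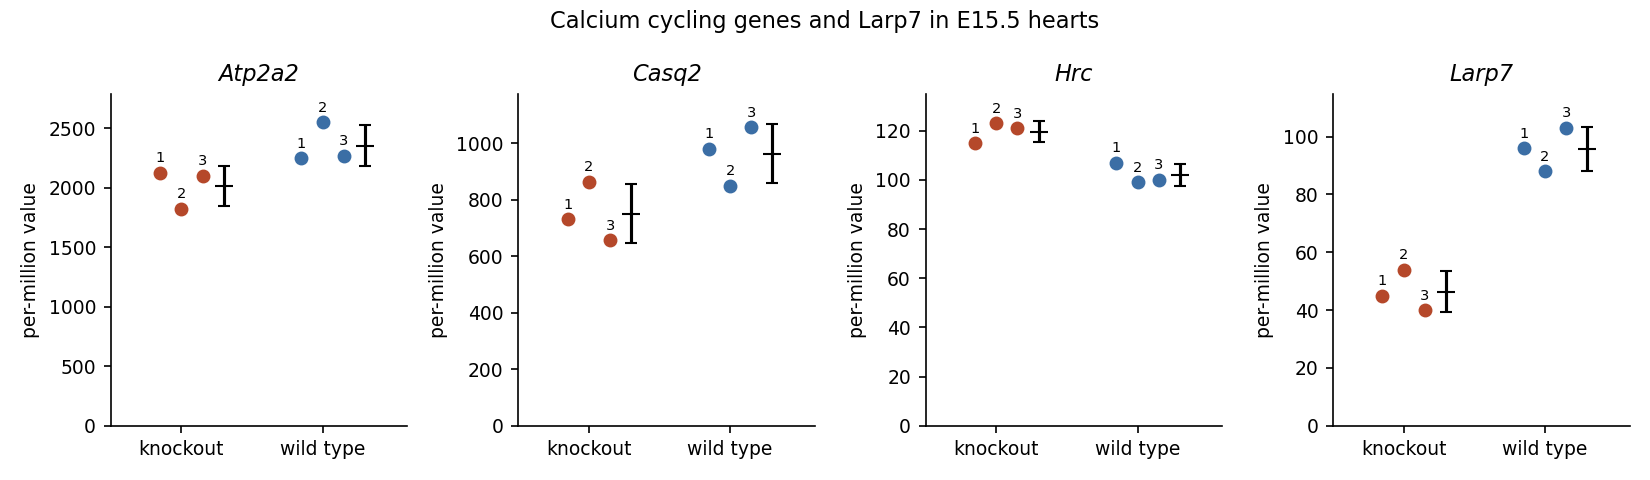
Per-million values (vertical axes, each from 0) of Atp2a2, Casq2, Hrc and the targeted gene Larp7 in 3 knockout and 3 wild-type whole hearts at E15.5; points are samples with their replicate number, black marks the mean and SD (n = 3). Larp7 separates fully, Atp2a2 lies lower and Hrc higher in the knockout by little, and Casq2 overlaps at number 2.

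Cardiomyocyte markers were lower beside these values at E15.5: 8 of the 9 listed had negative changes, 0 were called in limma, and the median was -0.36. Their summed values were 15944 to 18102 in the knockout, against 19001 to 21161 in the wild type. Atrial markers were higher in 12 of 12, with 2 called and summed values of 3883 to 4326 in the knockout, against 2406 to 2677 in the wild type. Ventricular markers summed to 2662 to 4705 in the knockout and 5126 to 7172 in the wild type, with 4 of 6 negative. Skeletal muscle markers summed to 501 to 567 in the knockout and 946 to 1014 in the wild type. Most of that sum was Ckm, called as lower at means of 388 in the knockout and 770 in the wild type. Acta1 had means of 127 in the knockout and 188 in the wild type. Of the 9 tested skeletal muscle markers 5 were higher and 4 lower, with a median of 0.333. Fibroblast markers summed to 4940 to 5808 in the knockout and 4056 to 4928 in the wild type, with 5 higher and 2 lower. The 1 called was Pdgfra, as higher (means of 116 in the knockout and 70.7 in the wild type, adjusted p = 0.0296, limma). Endothelial markers summed to 1476 to 1552 in the knockout and 1333 to 1410 in the wild type, with 8 higher, 2 lower and 0 called. Listed markers of these types were above 0 in at least 1 sample. Their part in the Atp2a2 and Casq2 values was not tested.

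Among 115 other genes of calcium handling, in 8 lists, 106 were tested in the adult, where 3 rose and 0 fell in mCKO by limma, beside 2.34% and 0.95% of all tested genes. At an unadjusted p under 0.05 there were 8 higher and 7 lower, beside 9.05% and 3.3% of all tested genes. The adult share called higher is thus close to that of all tested genes. The median change was 0.07, beside 0.0764 over all tested genes. At E15.5, 74 were tested, 1 rose and 0 fell in the knockout, beside 0.529% and 0.103% of all tested genes. At an unadjusted p under 0.05, 10 were higher and 3 lower at E15.5, beside 10.3% and 3.62% of all tested genes (limma). The E15.5 median was 0.00, beside 0.107 over all tested genes.

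The genes that rose in the adult came from 3 lists. Rcan1, an inhibitor of the calcium-activated phosphatase calcineurin, had 126 and 120 in the mCKO samples, against 79 and 86 in the CTR samples (log2 0.57, SE 0.15, adjusted p = 0.00608, limma). It was 1 of 12 calcineurin genes that passed, and the list's median was 0.02. Pde3b, a phosphodiesterase of cyclic nucleotides, had 14 and 13 in the mCKO samples, against 6 and 6 in the CTR samples (log2 1.05, SE 0.25, adjusted p = 0.00193, limma). It was 1 of 18 genes of beta-adrenergic and protein kinase A control that passed. Thbs4, a secreted thrombospondin that stands in the pump list but is not itself a part of the pump, had 20 and 15 in the mCKO samples, against 4 and 8 in the CTR samples (log2 1.45, SE 0.24, adjusted p = 3.89e-07, limma). Thbs4 was not called without the replicate block (adjusted p = 0.0898, limma). With own and pooled spread weighted equally none of the 3 was called (adjusted p = 0.935 each, limma), nor was any other adult gene. Without the variance of rounding all 3 calls were lost too (Thbs4 adjusted p = 0.62, Pde3b 0.141, Rcan1 0.45, limma); the 3 genes called higher under that setting are other genes of the lists.

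Other adult genes of these lists did not pass the test. Of the 23 genes around the ryanodine receptor 0 were called in limma, with 2 higher and 1 lower at an unadjusted p under 0.05. Sri, encoding the calcium binding protein sorcin, was 70.0 ± 7.1 in mCKO and 52.5 ± 6.4 in CTR (SD, n = 2 each; adjusted p = 0.124, limma). S100a1, a calcium sensor that acts on both the pump and the release channel, was 856 ± 71 in mCKO and 678 ± 70 in CTR (adjusted p = 0.198, limma). Akap7, an anchor of protein kinase A at the reticulum, was 21.5 ± 0.7 in mCKO and 31.5 ± 0.7 in CTR, just outside the threshold (adjusted p = 0.0559, limma), and was chosen for mention after its values had been seen. Saraf, which limits store-operated entry, was 250 ± 50.9 in mCKO and 329 ± 49.5 in CTR (adjusted p = 0.108, limma). Orai3, a pore of store-operated entry, was 19.0 ± 1.4 in mCKO and 23.0 ± 1.4 in CTR (adjusted p = 0.656, limma). In mitochondria, the outer membrane channel gene Vdac1 was 859 ± 37 in mCKO and 1038 ± 37 in CTR (adjusted p = 0.386, limma). Micu2, a regulator of mitochondrial calcium uptake, was 113 ± 3 in mCKO and 93.5 ± 3.5 in CTR (adjusted p = 0.443, limma). Of the extrusion genes, the plasma membrane calcium pump gene Atp2b1 was 65.0 ± 4.2 in mCKO and 54.5 ± 3.5 in CTR (adjusted p = 0.539, limma). Fxyd1, phospholemman, was 403 ± 27 in mCKO and 441 ± 27 in CTR (adjusted p = 0.877, limma).

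Among the skeletal muscle paralogues of the cycle, Atp2a1 and Ryr1 were near the limit of the rounded values in every adult sample. Casq1 was near it in mCKO number 2. Atp2a1, the fast skeletal muscle pump, was 1 and 0 in the mCKO samples and 0 and 1 in the CTR samples. Ryr1, the skeletal muscle release channel, was 1 and 1 in mCKO and 0 and 1 in CTR. Casq1, the skeletal muscle calsequestrin, was 11 and 1 in mCKO and 7 and 17 in CTR, with overlap (adjusted p = 0.939, limma). These paralogues were chosen for mention after their values had been seen.

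The L-type channel list had a median change of 0.22 in the adult and 0.31 at E15.5, with 0 of 15 and 0 of 11 genes called in limma. In the adult, 2 were higher and 1 lower at an unadjusted p under 0.05, and at E15.5, 1 was higher and 0 lower. Its auxiliary subunit gene Cacnb1 was 11 and 9 in the mCKO samples and 5 and 8 in the CTR samples (adjusted p = 0.286, limma). Cacnb4, another such subunit, was 2 and 2 in the mCKO samples and listed at 0 in both CTR samples (adjusted p = 0.198, limma). At E15.5 Rem2, a small G protein that inhibits the channel, was 3, 4 and 2 in the knockout and 1, 1 and 2 in the wild type (adjusted p = 0.326, limma). At E15.5 Cacna1g, which encodes a T-type channel pore, was 42.7 ± 2.9 in the knockout and 34.3 ± 2.9 in the wild type (SD, n = 3 each; adjusted p = 0.43, limma).

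The single gene that rose at E15.5 was Itpr2, an inositol trisphosphate receptor that also releases calcium from internal stores. It had 83, 89 and 88 in the knockout hearts, against 54, 49 and 49 in the wild-type hearts, and the groups were well apart. On the log2 scale the difference was 0.76 (SE 0.16; adjusted p = 0.0185, limma), and Itpr2 was 1 of 17 tested genes of its list. Under median-of-ratios scaling it was 0.70 and was not called (adjusted p = 0.117, limma), nor was it called without number 1 of the knockout or of the wild type (adjusted p = 0.0576 and 0.0559, limma). It was also not called without the variance of rounding (adjusted p = 0.473, limma) or with own and pooled spread weighted equally (0.671). Nor was it called among genes with a mean of at least 10 (adjusted p = 0.332, limma). Under the rounding, weighting and mean settings 0 of all tested E15.5 genes were called. The lost calls under those settings therefore do not set Itpr2 apart from other genes. Under median-of-ratios scaling, by contrast, 7 genes were called higher and 4 lower. Without number 1 of the knockout 171 were called higher and 42 lower, and without number 1 of the wild type 179 and 40. In the adult apex Itpr2 was 25 and 22 in mCKO and 20 and 22 in CTR.

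Several E15.5 genes had separated groups but no call. Thbs4 was 75.7 ± 6.1 in the knockout and 51 ± 6.6 in the wild type (SD, n = 3 each; adjusted p = 0.103, limma). Fxyd1, phospholemman, which regulates the sodium pump, was 125 ± 9 in the knockout and 173 ± 9 in the wild type (SD, n = 3 each; adjusted p = 0.178, limma). Prkaca, a catalytic subunit of protein kinase A, was 211 ± 23 in the knockout and 283 ± 23 in the wild type (adjusted p = 0.255, limma). Akap5, which anchors that kinase, was 51.7 ± 4.7 in the knockout and 34.3 ± 3.8 in the wild type (adjusted p = 0.105, limma). Myoz2, a calcineurin-binding protein of the sarcomere, was 98.7 ± 9.1 in the knockout and 134 ± 9 in the wild type (adjusted p = 0.203, limma). Vdac1 was 651 ± 36 in the knockout and 795 ± 36 in the wild type (adjusted p = 0.495, limma). Ppp3ca, a catalytic subunit of calcineurin, was 186 ± 8 in the knockout and 162 ± 9 in the wild type (adjusted p = 0.61, limma). Dmpk, a kinase, was 35.7 ± 11 in the knockout and 49.7 ± 10.7 in the wild type (adjusted p = 0.531, limma). Of the scarcer genes, Slc8b1, the mitochondrial exchanger, was 8.67 ± 1.53 in the knockout and 5 ± 1.73 in the wild type, with overlap (adjusted p = 0.256, limma). Orai2 was 6.33 ± 1.53 in the knockout and 3.33 ± 1.53 in the wild type, also with overlap (adjusted p = 0.257, limma).

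**Figure D5:**
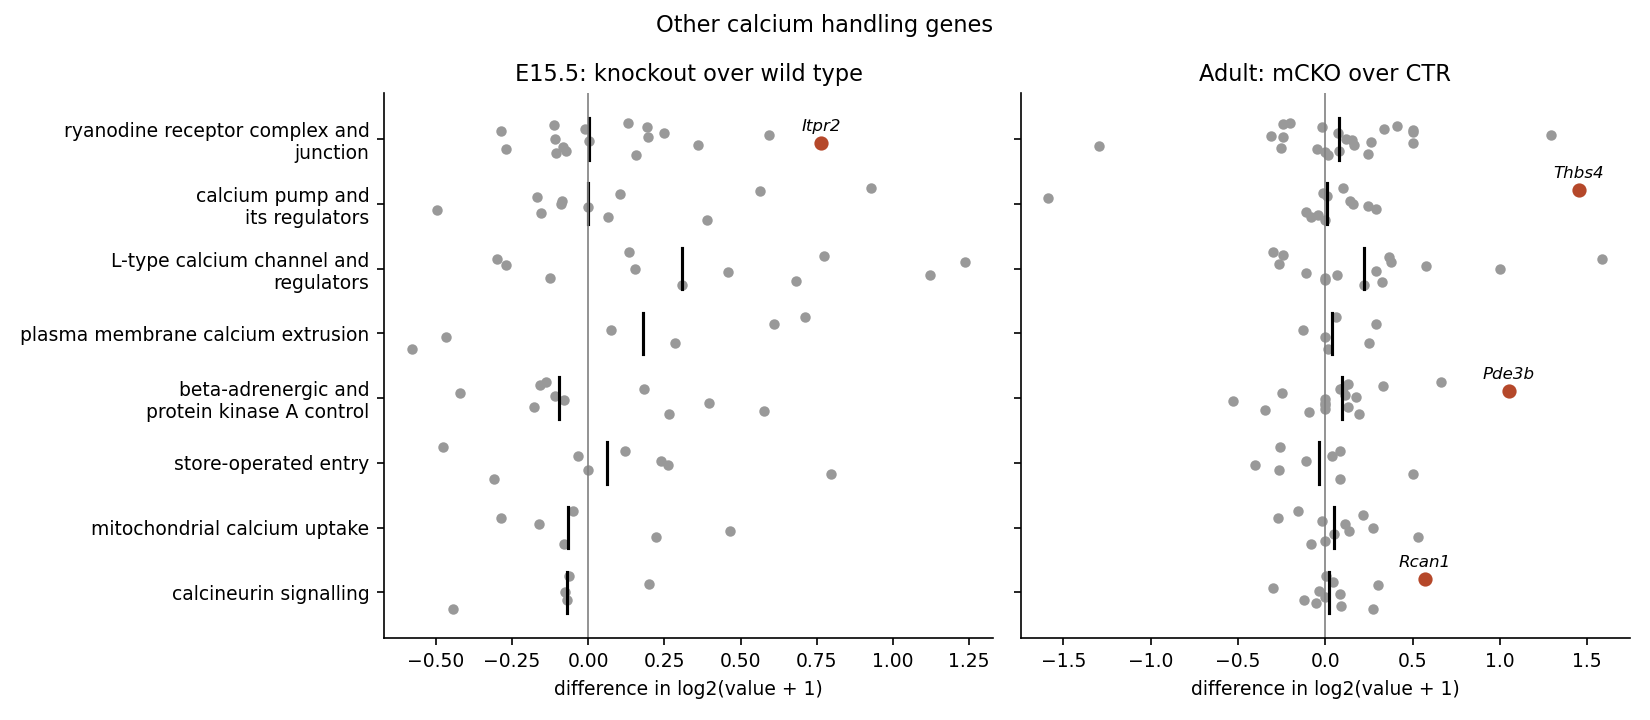
Change of other calcium handling genes on the log2(value + 1) scale (horizontal axes), by list; grey points are genes that did not pass the test, red points are called genes with their symbol, and black bars mark list medians. Thbs4, Pde3b and Rcan1 rose in the adult mCKO apex and Itpr2 in the E15.5 knockout hearts.

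Profiles across samples were compared by the root mean square difference in log2(value + 1), each gene set to 0 at its own control mean. In the adult, over 4 samples, Fndc5 (0.0129), Acot7 (0.013) and C030006K11Rik (0.0128) lay nearest to Atp2a2, and 248 of 6222 genes with a mean of at least 20 lay within 0.1. At E15.5, over 6 samples, Tm2d1 (0.00817), Set (0.0155) and Cib1 (0.0161) were nearest, with 433 of 6821 genes within 0.1. For Ryr2 in the adult, 1360 of the 6222 genes lay within 0.1, with Prpf6, Carm1 and Med13l nearest. No gene lay within 0.1 of Strit1, which was added to this comparison after its values had been seen. The nearest was Ech1, an enzyme of fatty acid oxidation, at 0.863. The Strit1 profile includes the value of 4 in mCKO number 2 whose sign appears to have been changed.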

How the data were processed

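Total RNA was isolated on columns with DNase digestion from frozen whole embryonic hearts or adult apex tissue and sequenced on an Illumina platform, per the labels' protocols. Per the submitters' processing notes, the tools were HISAT2 and HTSeq, without versions, and the build mm10. The authors deposited, per gene and sample, a score: per-million values rounded to whole numbers, of which the sources used here name neither the scaling (TPM or CPM) nor any adjustment. The authors' own log2 fold changes, their standard errors and p-values stand in the same deposited tables, per the file headers, whose column names are those of DESeq2.

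Each table was tested separately, knockout against control, on log2(value + 1) in limma 3.58.1 (R 4.3.3), keeping genes that reach 1 in at least as many samples as a group holds. Replicate number entered as a block, because among genes averaging 10 or more the totals of same-numbered samples differ by at most 2 in 8328 of 8366 (E15.5) and 8642 of 8658 (adult). This pairing comes from the values, not from the labels; over genes, departures from the group mean in samples sharing a number correlated at -0.604 to -0.531 at E15.5 and at -0.354 in the adult; genes are not independent. The variance of rounding (0.0833) was added to each gene's variance, and eBayes was used with trend and robust options. Residual degrees of freedom were 2 (E15.5) and 1 (adult), with a median of 27.5 added by the prior at E15.5 and an infinite median in adult hearts. Both fits were first run on simulated data in which the changed genes differed by 1 log2 unit. That check set no limit on false calls and did not cover smaller changes such as those of Atp2a2 and Hrc.

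The members and lists were chosen with earlier results of these data known. Named genes are the members, Larp7, called genes of the related lists (the 2 genes with the smallest p in a list without calls), and the 3 nearest profiles for Atp2a2 and Ryr2; 2 genes that this rule names are not reported here. Ratios were tested by exact permutation over samples. Alternatives covered the block, rounding variance, prior, scaling, pseudocount, filter and each sample left out.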

Additional observations from a re-analysis of the deposited data

Results flagged for a closer look

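Hrc went opposite ways in the 2 models. In the adult all mCKO values (675 and 696) lay below all CTR values (944 and 924), a log2 change of -0.45. At E15.5 all knockout values (115, 123 and 121) lay above all wild-type values (107, 99 and 100), a log2 change of 0.23. The difference between the models was not tested, since the tables were normalised separately and differ in tissue, allele and age. The E15.5 change did not pass its own test (adjusted p = 0.536, limma).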

How the results depend on the processing

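Depth is unknown, values under about 10 are coarse whole numbers, and 2 or 3 samples a group with fixed totals limit every test. At E15.5 members called lower numbered 0 under all settings but leaving out 1 sample (0 to 1). Larp7 at E15.5 lost its call without rounding variance, with own and pooled spread weighted equally, and with a mean of at least 10. Its log2 change there stayed at -1.04. Under each of these settings 0 of all tested E15.5 genes were called. A lost call or a count of 0 at E15.5 under them therefore says nothing of single genes. With the replicate block dropped, 2 adult members were called lower against 3, and 4 other calcium handling genes higher and 2 lower at E15.5 (1 and 0 as reported), and 2 lower in the adult (0 as reported). Without rounding variance, 0 adult members were lower, and other calcium handling genes numbered 0 higher at E15.5 and 3 lower in the adult. With own and pooled spread weighted equally, adult members lower and other calcium handling genes higher at both ages were 0, as were calls over all genes. Scaling by median of ratios gave 0 other genes higher at E15.5 and 2 lower in the adult. No filter gave 5 other genes higher at E15.5, and a mean of at least 10 gave 0 higher there and 1 lower in the adult. Leaving out 1 sample gave 1 to 3 higher and 0 to 1 lower other genes at E15.5, and 3 to 6 higher and 1 to 3 lower in the adult, where these fits had no block. Ryr2 turned to 0.103 without mCKO number 2 and 0.102 without CTR number 2, and Slc8a1 to -0.0409 without mCKO number 1 and -0.0486 without CTR number 1. Both ratios kept their direction, also in exact sign-flip permutation tests with the replicate block (p = 0.5, the smallest possible). Over all genes, 290 were higher and 221 lower in the adult under median-of-ratios scaling (347 and 141 as reported), and 7 and 4 at E15.5 (72 and 14 as reported); without the block E15.5 had 430 and 174. Setting sign-changed values to 0 was added after the data had been seen. No ratio could be formed for Sln, nor for Pln or Strit1 at E15.5.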

Other observations

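Control levels of 3 members can be set side by side across ages, with no test, since the tables were normalised separately and hold apex in the adult and whole hearts at E15.5. Atp2a2 was 11723 and 11937 in the adult CTR samples and 2244, 2547 and 2268 in the E15.5 wild-type samples. Hrc was 944 and 924 in the adult and 107, 99 and 100 at E15.5. Casq2 was 722 and 800 in the adult and 981, 850 and 1058 at E15.5.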
